A study of Homo sapiens with 18 samples.

Results

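The response of LNCaP cells to the androgen R1881 was measured inside cells in which CTBP1-AS or PSF had been targeted with siRNA. The arrays were chosen by their labels: LNCaP arrays transfected with siCTBP1-AS, siCTBP1-AS #2 or siPSF, each with 1 vehicle and 1 R1881 array, which gave 6 of the 18 arrays of the series and 3 pairs. LNCaP is an androgen-responsive line derived from human prostate cancer, R1881 (metribolone) is a synthetic androgen, and the vehicle was ethanol. R1881 was given at 10 nM in the siCTBP1-AS and siPSF pairs and at 1 nM in the siCTBP1-AS #2 pair, 48 h after transfection and after 3 days in medium whose 2.5% serum had been stripped with charcoal and dextran. The duration of the hormone treatment and the meaning of the mark #2 are not given in the sources used here. The other 12 arrays were 3 LNCaP siControl pairs and 3 VCaP pairs at 1 nM (siControl, siCTBP1-AS #2 and siPSF). Each LNCaP siControl pair was put in a set with 1 knockdown pair given the same dose. The array titles do not name these sets, which follow the order of the arrays in the series. Median vehicle signals in control and knockdown were 7.25 and 7.26, 6.49 and 6.45, and 7.46 and 7.47 in the 3 sets. The labels do not say that the pairs came from separate cultures, so a p-value here reflects the spread among these 6 arrays alone. That spread is of responses between pairs that differ in siRNA, in set and, for the siCTBP1-AS #2 pair, in dose. The rest of it may be technical. The siRNA changed with the set, and the dose with the siCTBP1-AS #2 pair, so their parts in a difference between pairs cannot be told apart.

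Androgens act through a nuclear hormone receptor that moves to DNA and binds paired hexamers, from which it raises genes of prostate secretion, lipid synthesis and protein glycosylation and lowers others. CTBP1-AS is an antisense RNA of the CTBP1 locus, CTBP1 encodes a transcriptional corepressor, and PSF, encoded by SFPQ, is a nuclear protein that binds RNA and DNA. The question asked here is how the androgen programme looks when these factors have been targeted, without using the control cells to define it.

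The promoters of 3 androgen-raised genes are printed because they hold a window close to the paired hexamer that hormone receptors of this class bind, AGAACA and its reverse complement TGTTCT with 3 bases between them (AGAACANNNTGTTCT). KLK2 and KLK3 encode the kallikrein proteases of prostate secretion, and STK39, a kinase gene chosen after its values were seen, rose by 1.49. Each sequence is the 250 bases before the RefSeq start in GRCh38.p14, read 5′ to 3′ on the gene's strand, with the best 15-base window in capitals.
KLK2: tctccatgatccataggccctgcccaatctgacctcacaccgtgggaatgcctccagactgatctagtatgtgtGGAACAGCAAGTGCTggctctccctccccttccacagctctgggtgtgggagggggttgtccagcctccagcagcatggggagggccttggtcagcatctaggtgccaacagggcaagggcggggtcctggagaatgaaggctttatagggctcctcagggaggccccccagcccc
KLK3: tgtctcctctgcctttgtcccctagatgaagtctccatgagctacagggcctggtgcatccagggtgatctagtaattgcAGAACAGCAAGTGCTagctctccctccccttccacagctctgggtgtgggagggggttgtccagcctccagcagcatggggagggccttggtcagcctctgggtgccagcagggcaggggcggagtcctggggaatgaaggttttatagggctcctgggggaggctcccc
STK39: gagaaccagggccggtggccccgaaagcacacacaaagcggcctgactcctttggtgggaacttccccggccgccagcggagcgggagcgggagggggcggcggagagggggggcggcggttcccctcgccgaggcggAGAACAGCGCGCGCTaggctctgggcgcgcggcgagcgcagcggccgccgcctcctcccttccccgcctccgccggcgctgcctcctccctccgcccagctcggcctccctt
The KLK2 stretch is chr19:50873189-50873438 on the plus strand, and its window starts 176 bases before the gene start and has 3 mismatches to the motif. The KLK3 stretch is chr19:50854665-50854914 on the plus strand, and its window starts 170 bases before the gene start and has 2 mismatches. The STK39 stretch is chr2:168247596-168247845 on the minus strand, and its window starts 112 bases before the gene start and has 3 mismatches. Of all 27305 promoters of this length in the table, 1.19% held a window with 2 or fewer mismatches and 9.34% with 3 or fewer. Among genes tested these shares were 0.533% and 5.24%, and 13 of the 230 promoters of genes that rose (5.65%) and 5 of the 97 of genes that fell (5.15%) had 3 or fewer. The single hexamer, on either strand, lay in 6.52% of promoters of genes that rose and 11.3% of those of genes that fell, beside 7.42% of genes tested. A match is a description of these letters and not a binding site.

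Before the response itself, the labels were checked on the arrays. SFPQ, the target of siPSF, had a log2 signal of 10.47 with vehicle and 9.89 with R1881 in the siPSF pair, below the 11.15 and 10.79 of the siControl pair of its set. CTBP1-AS itself was not analysed here, and CTBP1-DT, which is read from the promoter region of CTBP1, does not measure it. Of 13 luminal prostate markers, 9 lay in the highest 25% of genes by mean signal and none in the lowest 25%, with KRT8 between 11.91 and 13.42 and CDH1 between 11.97 and 12.32. Of the markers of other cell types, 1 of 7 basal, 5 of 9 fibroblast, 5 of 7 leukocyte, 4 of 5 endothelial and 6 of 12 neuroendocrine genes lay in the lowest 25%. PTPRC of leukocytes reached at most 3.80, DCN of fibroblasts 4.67, PECAM1 of endothelium 5.04 and KRT5 of basal epithelium 6.05. The same lists held genes that were not low: CD68 (8.20 to 10.65), ENO2 (8.27 to 10.29) and SYT4 (10.38 to 13.25) lay in the highest 25%, and COL1A1 ran from 7.05 to 7.98. The summed level of the luminal list ran from 14.16 to 14.63 with vehicle and from 14.61 to 15.12 with R1881. The summed lists of the other cell types overlapped between treatments more widely, with leukocytes at 8.62 to 10.82 and 8.78 to 10.96, fibroblasts at 8.27 to 9.33 and 8.22 to 9.21, basal epithelium at 7.93 to 9.46 and 7.93 to 9.27, endothelium at 5.98 to 7.99 and 6.17 to 7.75, and neuroendocrine genes at 11.07 to 13.41 and 11.19 to 13.22. Median signals were 7.26, 6.45 and 7.47 on the vehicle arrays of the siCTBP1-AS, siCTBP1-AS #2 and siPSF pairs, so levels are comparable within a pair and changes across pairs. Where vehicle and R1881 arrays are said below to overlap or not, the deposited signals were ranked across pairs. These differences in scale enter that ranking.

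R1881 moved known androgen-induced and androgen-repressed genes in the knockdown cells. The metalloreductase gene STEAP4, the kallikrein gene KLK2 and the transporter gene SLC45A3 rose, while the digestive enzyme gene SI and the opioid receptor gene OPRK1 fell. The metalloprotease gene MMP16, which was not among the known androgen-repressed genes listed here, fell most. Limma, with the pair as a block and Benjamini-Hochberg adjustment at 0.05, called 403 of 13812 genes tested (2.92%), 278 higher (2.01%) and 125 lower (0.905%). All 403 had 1 sign in the 3 pairs, which the call from 3 paired differences nearly fixes. Over all genes tested 2964 were above 0 and 2930 below 0 in every pair. Changes of at least 1 log2 unit in every pair were reached by 55 genes upward (0.398%) and 14 downward (0.101%), all of them called. A change here is the R1881 signal minus the vehicle signal on the log2 scale, and the median over all genes tested was -0.01. The call rests on 2 residual degrees of freedom. Without the siPSF pair 29 genes were called, without the siCTBP1-AS pair 176 and without the siCTBP1-AS #2 pair 281. With no pairing none passed, with 123 at an unadjusted p under 0.05, as set out with the other processing choices.

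**Figure D1:**
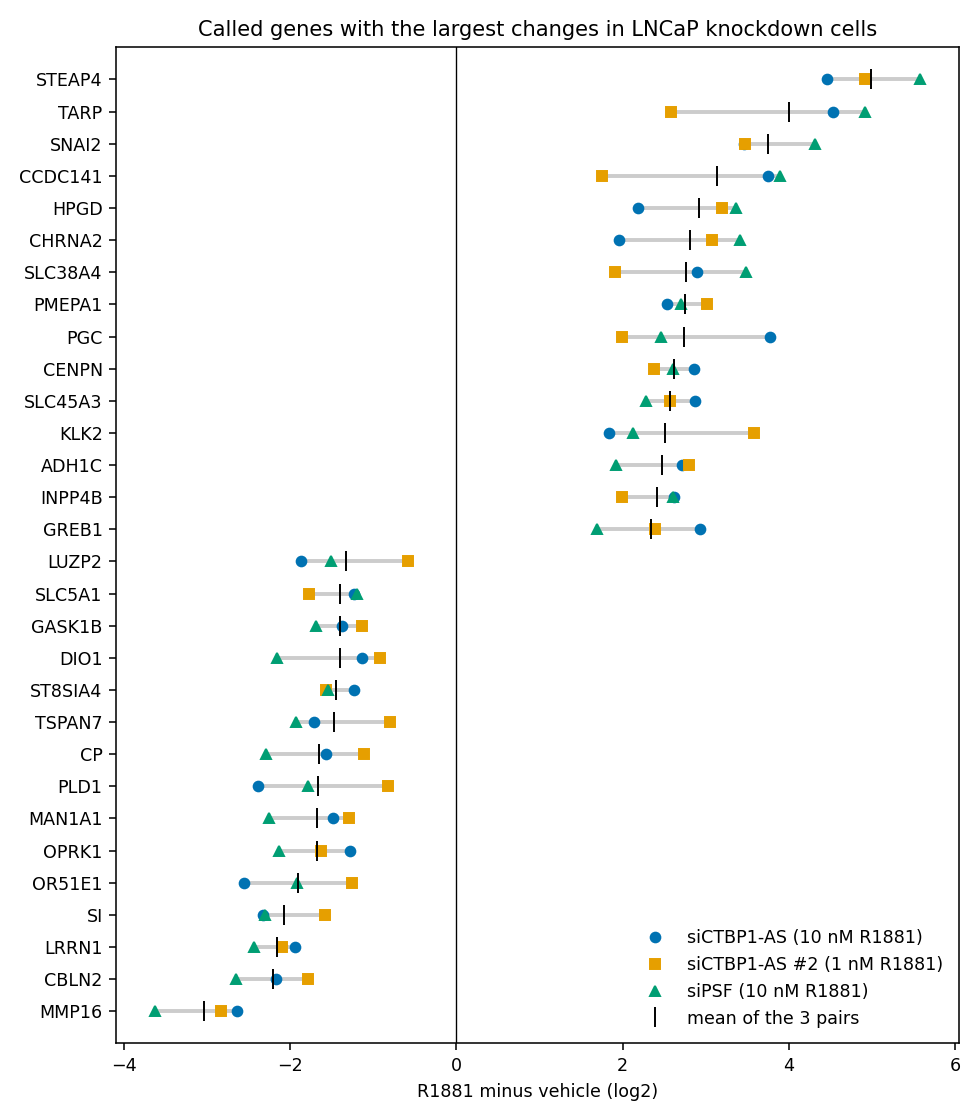
R1881 minus vehicle (log2, x axis) for the 15 called genes with the largest increase and the 15 with the largest decrease, with a symbol for each knockdown pair and a bar at the mean of the 3 pairs. STEAP4 lies highest at 4.98 and MMP16 lowest at -3.03, and no gene has pairs on both sides of 0.

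STEAP4, which encodes a metalloreductase of the cell membrane, had the largest increase. Its signal was 5.49, 3.50 and 4.32 with vehicle and 9.95, 8.41 and 9.90 with R1881 in the siCTBP1-AS, siCTBP1-AS #2 and siPSF pairs. Every R1881 array lay far above every vehicle array, and the mean change was 4.98 ± 0.57 (SD, n = 3 pairs; adjusted p = 0.00109), a 31.7-fold rise. PMEPA1, whose product restrains TGF-beta signalling, had signals of 7.40, 7.67 and 8.68 with vehicle and 9.94, 10.69 and 11.38 with R1881. The groups did not overlap, and the change was 2.75 ± 0.25. SLC45A3, a prostate-restricted transporter gene, went from 8.97, 8.54 and 9.71 to 11.84, 11.11 and 11.99, a change of 2.57 ± 0.30. Here too the lowest R1881 array lay above the highest vehicle array.

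SNAI2, a transcription factor gene known from epithelial to mesenchymal transition, had signals of 8.07, 4.39 and 6.92 with vehicle and 11.53, 7.86 and 11.22 with R1881. The siCTBP1-AS vehicle array stood above the siCTBP1-AS #2 R1881 array in deposited signal. The medians of these arrays were 7.26 and 6.46, a difference that this ranking does not allow for. The change did not vary in sign, at 3.74 ± 0.49. TARP, transcribed from the T cell receptor gamma locus in prostate cells, changed by 4.53, 2.58 and 4.92, and probes at this locus can read related gamma chain genes. The siCTBP1-AS #2 pair was the lowest of the 3 for TARP, as it was for CCDC141 at 3.75, 1.76 and 3.89 and for SLC38A4, an amino acid transporter gene, at 2.89, 1.91 and 3.49. HPGD, which inactivates prostaglandins, rose by 2.91, CHRNA2, a nicotinic receptor subunit gene, by 2.81 and PGC, encoding pepsinogen C, by 2.74. CENPN, a centromere protein gene, rose by 2.62 ± 0.24, the alcohol dehydrogenase gene ADH1C by 2.47, INPP4B, a lipid phosphatase gene of the PI3K pathway, by 2.41 and GREB1, a steroid-responsive cofactor gene, by 2.34.

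The kallikreins differed in how evenly they moved. KLK2 had signals of 8.73, 6.89 and 9.05 with vehicle and 10.57, 10.47 and 11.18 with R1881, and rose by 1.83, 3.58 and 2.13 (mean 2.51, adjusted p = 0.0193). All R1881 arrays lay above all vehicle arrays. KLK3, which encodes prostate-specific antigen, had signals of 11.79, 10.39 and 12.82 with vehicle and 12.91, 12.86 and 13.80 with R1881. These groups also did not overlap, but the changes of 1.11, 2.46 and 0.99 (mean 1.52 ± 0.82) gave an adjusted p of 0.0531, which missed the threshold. KLK3 was called with each array centred on its median, with the stricter filter on low signals and without the siCTBP1-AS #2 pair. In both genes the siCTBP1-AS #2 pair started lowest and changed most, and so did the siControl pair of its set. There KLK2 started at 6.70 and changed by 4.22, beside 2.14 and 2.20 in the other siControl pairs, and KLK3 started at 10.65 and changed by 2.60, beside 1.22 and 0.88. KLK4, the third kallikrein measured, rose by 1.31 ± 0.42.

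**Figure D2:**
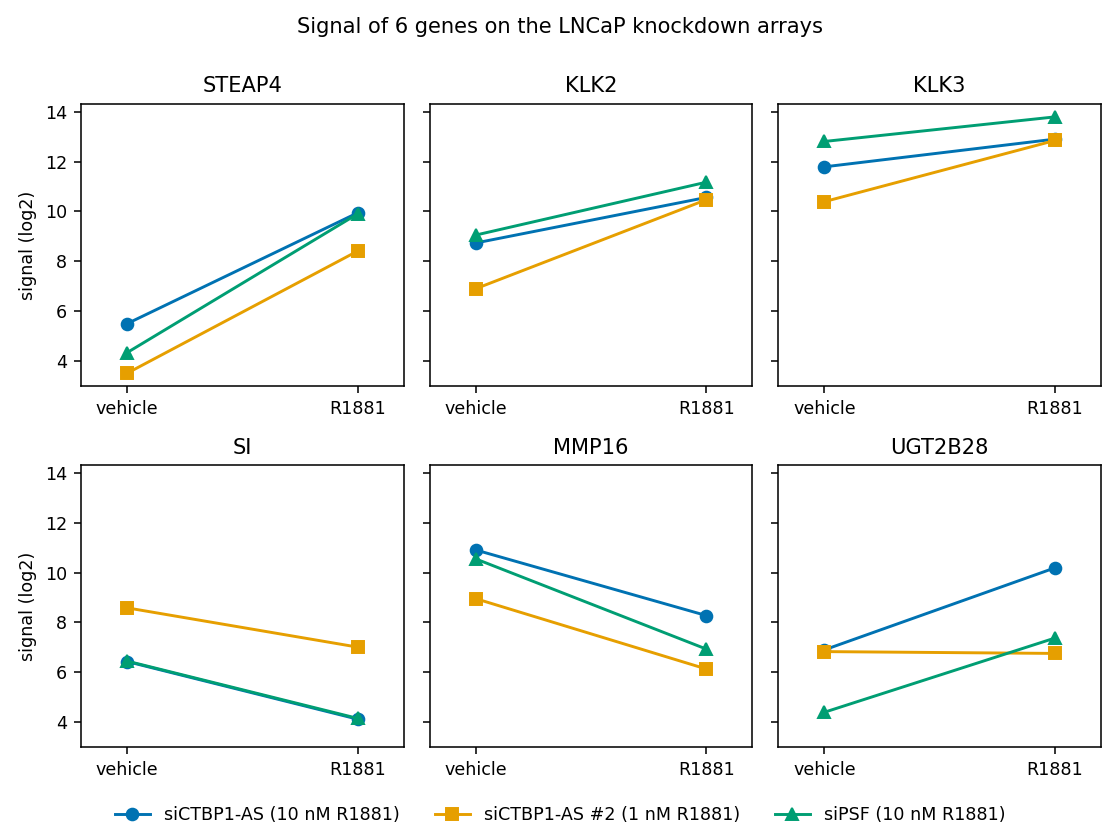
Log2 signal (y axis) with vehicle and with R1881 for 6 genes, a line for each knockdown pair. STEAP4, KLK2 and KLK3 climb in every pair, SI and MMP16 drop in every pair, and UGT2B28 climbs in the 10 nM pairs while its line in the 1 nM pair is flat at 6.83 and 6.75.

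Among decreases, MMP16, encoding a membrane-bound matrix metalloprotease, was first. Its signal was 10.91, 8.96 and 10.56 with vehicle and 8.28, 6.13 and 6.93 with R1881, so all vehicle arrays lay above all R1881 arrays, and the change was -3.03 ± 0.52 (adjusted p = 0.00251). SI, the sucrase-isomaltase gene, had signals of 6.43, 8.59 and 6.45 with vehicle and 4.11, 7.01 and 4.14 with R1881. The siCTBP1-AS #2 pair was high with both treatments, so the groups overlapped, but each pair dropped, with changes of -2.32, -1.58 and -2.31. CBLN2 and LRRN1, genes of synaptic and neuronal surface proteins, fell by 2.20 and 2.16, and OR51E1, an olfactory receptor gene expressed in prostate, fell by 1.90. OPRK1, the kappa opioid receptor gene, fell by 1.68, the mannosidase gene MAN1A1 by 1.67, the phospholipase gene PLD1 by 1.66, and CP, encoding ceruloplasmin, by 1.66. CP had signals of 9.96, 4.45 and 6.54 with vehicle and 8.39, 3.34 and 4.25 with R1881. In the siControl pairs its vehicle signals were 5.37, 4.27 and 4.22, and it changed by -0.01, -0.62 and -0.23. It was too faint there to enter the control test. TSPAN7 (-1.47), the sialyltransferase gene ST8SIA4 (-1.45), the deiodinase gene DIO1 (-1.40), GASK1B (-1.40), the glucose transporter gene SLC5A1 (-1.40) and LUZP2 (-1.32) completed the 15 largest decreases. The calls for PLD1 and LUZP2 were lost under quantile normalization, with changes of -1.72 and -1.37.

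Of 29 known androgen-induced genes tested, 24 rose and none fell, beside 278 higher and 125 lower of all 13812 genes tested. Like the other lists, this one was chosen with earlier results of these data known, so its counts are no independent check. The median change of the list was 1.76, beside -0.01 over all genes tested, and it was 1.81, 1.84 and 1.83 in the siCTBP1-AS, siCTBP1-AS #2 and siPSF pairs. All 29 were above 0 in every pair, beside 2964 of the 13812 genes tested. ABCC4, a transporter gene, rose by 1.76, ELL2, an elongation factor gene, by 2.02, GNMT, a glycine methyltransferase gene, by 2.11, and ZBTB16, a zinc finger repressor gene, by 2.05. The 5 that did not pass were KLK3, STEAP2 (0.15), STEAP1 (0.32), the transcription factor gene MAF (1.49) and the cold receptor gene TRPM8 (1.44). Without the siPSF pair 12 of the list were called, without the siCTBP1-AS pair 22 and without the siCTBP1-AS #2 pair 25. MAF and TRPM8 differed between pairs, with MAF at 1.81, 0.51 and 2.16 and TRPM8 at 1.01, 2.45 and 0.86. MAF was thus lowest, and TRPM8 highest, in the 1 nM pair.

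Of 14 known androgen-repressed genes tested, 6 fell and none rose, with a median change of -1.26. Of all 13812 genes tested 125 fell (0.905%). The 6 were LRRN1, SI, OPRK1, MAN1A1, DDC and UGT2B17. DDC, encoding aromatic amino acid decarboxylase, had signals of 7.50, 8.03 and 7.37 with vehicle and 6.38, 6.96 and 5.77 with R1881. These deposited signals did not overlap between treatments, although the medians of the sets differ, and the change was -1.26 ± 0.30. UGT2B17, which conjugates androgens with glucuronic acid, fell by 1.25, although its probes can read near-identical relatives. CAMK2N1, a kinase inhibitor gene, changed by -2.28, -0.31 and -1.64 and SESN3, a sestrin gene, by -1.60, -0.17 and -1.64, and neither passed. Both were nearest to 0 in the 1 nM pair. The list's median was -0.99, -0.86 and -1.64 in the 3 pairs, and 2 of its genes were called without the siPSF pair.

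A share of the lipid synthesis genes rose, beside 278 of all 13812 genes tested (2.01%). In the cholesterol list 5 of 16 tested genes rose, none fell, and all 16 were above 0 in every pair, beside 2964 of all 13812 genes, with a median of 0.44. INSIG1, which holds back cholesterol synthesis, had signals of 9.74, 7.67 and 8.95 with vehicle and 10.57, 8.35 and 9.93 with R1881, a change of 0.83 ± 0.15 that was smaller than the level differences between pairs. IDI1 rose by 0.78, SCAP, the escort of the sterol-sensing factor, by 0.74, SQLE by 0.59 and LSS by 0.56, the last 2 being enzymes of squalene conversion. HMGCS1, an early enzyme of the pathway, changed by 2.15, 0.51 and 1.73 and did not pass. In the fatty acid list 7 of 17 rose and none fell, with a median of 0.42, and 5 rose under quantile normalization. ELOVL2, an elongase of polyunsaturated fatty acids, rose by 2.12, ELOVL7 by 1.79 and ELOVL5 by 1.24. FASN, the fatty acid synthase gene, went from 11.45, 9.75 and 11.05 to 12.54, 10.50 and 12.27, a rise of 1.02 ± 0.24. ACACA, encoding the carboxylase that feeds it, rose by 0.77 ± 0.07, and the desaturase genes FADS1 and FADS2 by 0.71 and 0.44. Without the siPSF pair no gene of either lipid list was called, with 1757 of all genes at an unadjusted p under 0.05 in that limma fit. Without the siCTBP1-AS pair no cholesterol gene was called either, with 1995 genes at that level.

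**Figure D3:**
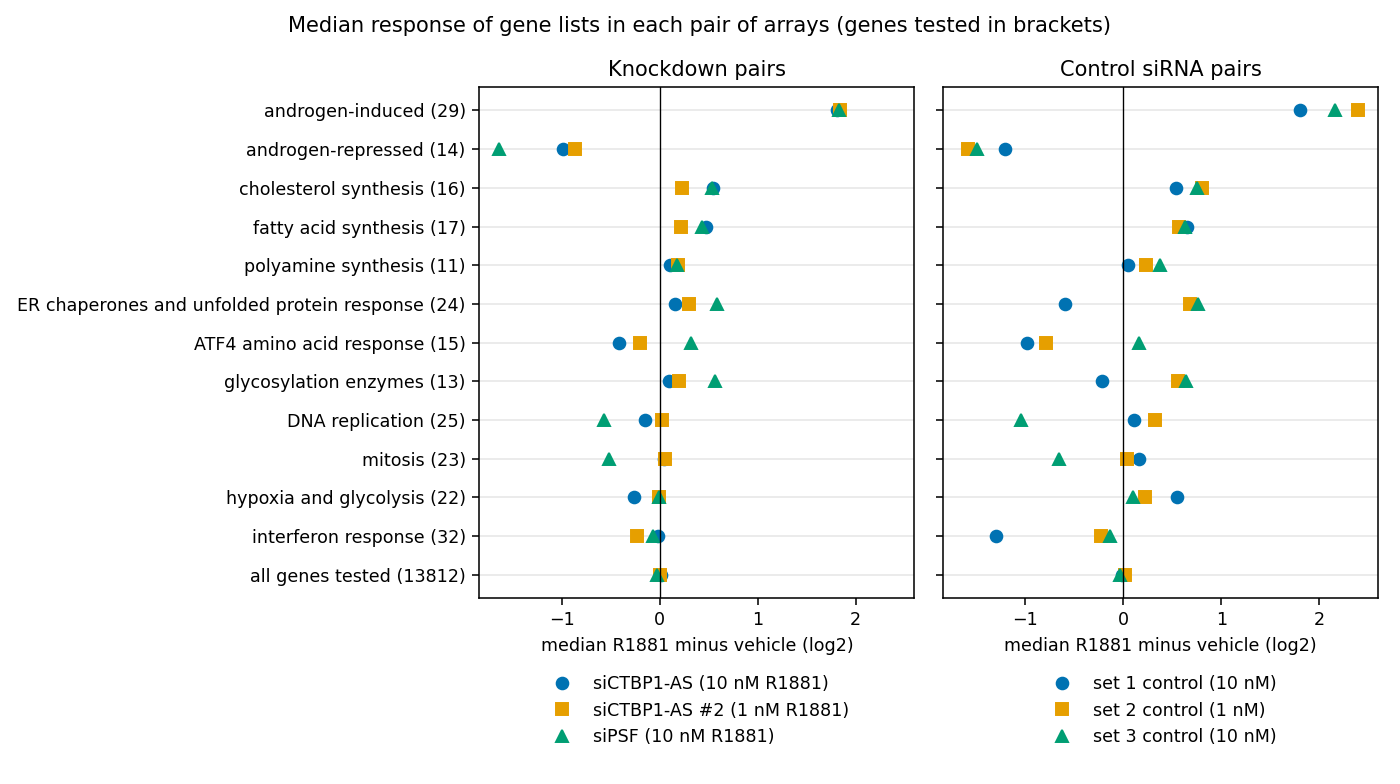
Median R1881 minus vehicle (log2, x axis) of 12 gene lists and of all genes tested, with a symbol for each knockdown pair (left) and each siControl pair (right). The androgen-induced symbols of the knockdown pairs lie together at 1.81 to 1.84, while the DNA replication symbol of the siPSF pair and that of its set's control lie at -0.57 and -1.05.

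Called counts in the other lists stand beside 403 of all 13812 genes tested (2.92%). In polyamine synthesis 2 of 11 rose, the decarboxylase gene ODC1 by 1.23 and the spermine synthase gene SMS by 1.29. Among 24 genes of endoplasmic reticulum folding 2 rose, EDEM3 by 1.05 and CREB3L4 by 1.11. Of 13 glycosylation enzymes tested 3 rose and 2 fell: ST6GALNAC1 (2.10), which starts sialylated O-glycans, CSGALNACT1 (2.02) of chondroitin synthesis and GALNT7 (0.86) rose, while ST3GAL1 (-0.75) and FUT8 (-0.61) fell. The ST6GALNAC1 call was lost under quantile normalization and with no filter on low signals. Among 16 genes tested in the PI3K list INPP4B, IGF1R (1.62) and TSC22D1 (0.68), a transcription factor gene, rose. GRB10 (-1.29), an adaptor that restrains the insulin-like growth factor receptor, and the regulatory subunit gene PIK3R3 (-0.71) fell. IGF1R itself had signals of 8.69, 6.92 and 8.36 with vehicle and 10.32, 8.40 and 10.11 with R1881. Its changes of 1.63, 1.48 and 1.75 were nearly equal.

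Of 21 immediate early and MAPK feedback genes 4 rose: ERRFI1 (2.05), an inhibitor of the epidermal growth factor receptor, the phosphatase gene DUSP4 (0.90, 1.19 and 1.21 in the 3 pairs) and the factor genes KLF6 (0.98) and KLF4 (0.97). LRIG1, another inhibitor of ERBB receptors, rose by 1.36 and was the 1 called gene of 6 in its list. Over all 13812 genes tested 403 were called (2.92%). NR4A1, an orphan nuclear receptor gene, rose by 1.07, SLC2A3, a glucose transporter gene, by 1.65 and the antiproliferative gene BTG1 by 0.67. In the luminal list SPDEF, an ETS-family factor of prostate epithelium, rose by 1.65 and KRT8 by 0.75, while ACP3, prostatic acid phosphatase, fell by 0.94. In the list of epithelial to mesenchymal transition SNAI2 rose, and MMP16 and FN1 (-0.77), encoding fibronectin, fell, so its called members moved in both directions. Without the siPSF pair no gene of the polyamine, folding, glycosylation, immediate early, luminal, ERBB, hypoxia, steroid receptor or cell cycle inhibitor lists was called, and the PI3K list had 2 called genes. Without the siCTBP1-AS pair the counts were 1 for polyamine and for folding genes, 3 for glycosylation, 2 for immediate early genes, 3 for PI3K genes and 1 for luminal genes, and BTG1 of the cell cycle list was lost. Without the siCTBP1-AS #2 pair they were 1 for polyamine and for folding genes and 3 for glycosylation, and BTG1 and NR4A1 were lost. With limma no gene of the DNA replication, mitosis, interferon, TGF-beta, corepressor, paraspeckle, amino acid response, ribosomal protein, ETS, neuroendocrine or steroid metabolism lists was called. Members at an unadjusted p under 0.05 numbered 3 of 25, 2 of 23, 8 of 32, 6 of 17, 2 of 13, 1 of 9, 4 of 15, 1 of 15, 3 of 6, 1 of 6 and 1 of 10 in that order, beside 2629 of all 13812 genes. CTBP1 changed by -0.30, -0.37 and -0.38 (adjusted p = 0.0778), and SFPQ by -0.12, -0.21 and -0.57 (adjusted p = 0.218). Neither was called, nor was SMAD3 at -0.21 or CTBP1-DT at 0.04.

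The 3 pairs differed in how many genes moved far. Changes of at least 1 log2 unit were counted for 141 genes upward and 85 downward in the siCTBP1-AS pair, 106 and 37 in the siCTBP1-AS #2 pair, and 212 and 125 in the siPSF pair. The siCTBP1-AS #2 pair had the smallest change of the 3 in 188 of the 403 called genes, and the siPSF pair the largest in 211. These counts were not made over all genes tested. There the SD of the changes was 0.32, 0.29 and 0.38 in the siCTBP1-AS, siCTBP1-AS #2 and siPSF pairs. The siCTBP1-AS #2 pair was thus also lowest, and the siPSF pair highest, in spread over genes in general. Across the 13812 genes, which are not independent replicates, the changes of 2 pairs correlated at r = 0.52 (siCTBP1-AS with siCTBP1-AS #2), 0.62 (siCTBP1-AS with siPSF) and 0.57 (siCTBP1-AS #2 with siPSF). The genes with the widest range were not called. UGT2B28, a glucuronidation enzyme gene, had signals of 6.90, 6.83 and 4.39 with vehicle and 10.19, 6.75 and 7.37 with R1881. Its changes were 3.30, -0.07 and 2.98, so the 1 nM pair alone did not climb, and the siControl pairs of the same sets changed by 3.12, 1.78 and 4.88. ANGPT2, encoding angiopoietin 2, changed by 0.33, 1.20 and 3.51 and the actin-bundling gene LCP1 by -0.28, 1.04 and 2.61. TXNIP, a thioredoxin inhibitor gene, changed by 1.85, -0.51 and -1.23, and RNY1, a small RNA gene, by 0.98, -0.88 and -1.79. For these the siPSF pair was at one end and the siCTBP1-AS pair at the other. The siControl pairs of the same sets had that order for ANGPT2 (1.46, 2.84 and 3.49) and LCP1 (1.40, 1.51 and 2.10). They had it for TXNIP too (-0.34, -1.38 and -1.41), but not for RNY1 (0.05, -1.18 and -0.22). Among called genes the range was widest for TARP, CCDC141, ST6GALNAC1, PGC and NDRG1, the last a stress gene that changed by 1.09, 1.60 and 2.87.

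**Figure D4:**
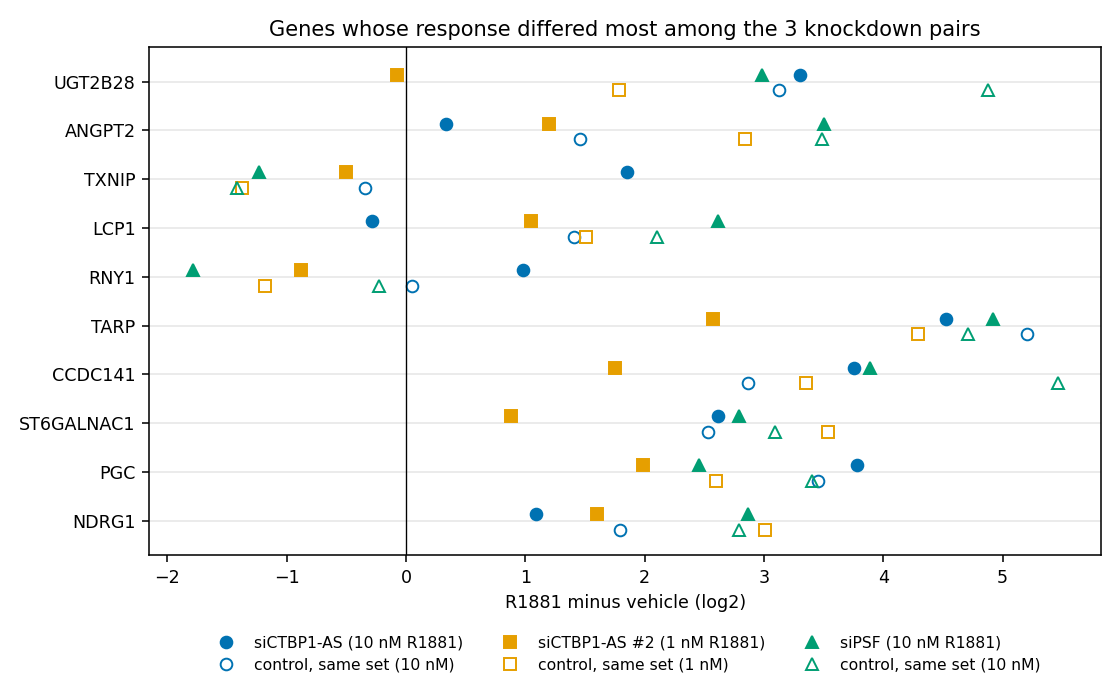
R1881 minus vehicle (log2, x axis) for the 5 genes with the widest range over the 3 knockdown pairs and the 5 called genes with the widest range, filled symbols for knockdown pairs and open symbols for the siControl pair of the same set. UGT2B28 at the top spans -0.07 to 3.30 in knockdown cells.

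The difference between the siPSF pair and the mean of both siCTBP1-AS pairs was tested with 1 residual degree of freedom. Limma called 0 of 13812 genes (0%). The lowest adjusted p was 0.344, and the unadjusted p was under 0.05 in 898 genes. ACTG2, a smooth muscle actin gene, changed by -0.03, -0.08 and 2.16 and PRDM1, a transcriptional repressor gene, by 0.12, 0.14 and 2.24. MYB, a proliferation-linked factor gene, changed by 0.12, 0.09 and -1.98, and LIX1 by 0.22, 0.33 and -1.88. These 4 genes were named because they had the lowest p in this test, and in each the adjusted p was 0.344. That choice favours genes in which both siCTBP1-AS pairs agree and the siPSF pair stands alone, as it did in all 4. The siControl pair of its set changed by 0.13, 0.45, -1.18 and 0.68 for ACTG2, PRDM1, MYB and LIX1. In replication and mitosis lists the siPSF pair was lowest, as it was for MYB and LIX1. DNA replication genes had medians of -0.14, 0.03 and -0.57 in the siCTBP1-AS, siCTBP1-AS #2 and siPSF pairs, with the siPSF pair lowest in 25 of 25, beside 5453 of 13812 genes tested. Among them TYMS, which makes thymidylate, changed by -0.33, -0.08 and -0.93. Mitosis genes had medians of 0.05, 0.05 and -0.52, with the siPSF pair lowest in 22 of 23. The siControl pair of the siPSF set was itself at -1.05 for replication and -0.65 for mitosis. The other siControl pairs were at 0.11 and 0.32 for replication and at 0.16 and 0.04 for mitosis. In neither list was the median of the siPSF pair below that of the siControl pair of its set. The part of siPSF in the low values was not tested. Folding genes of the endoplasmic reticulum ran the other way, at 0.15, 0.30 and 0.58, with the siPSF pair highest in 20 of 24, beside 4164 of 13812 genes tested, and DNAJB9, a chaperone cofactor gene, changed by 0.23, 0.94 and 2.37. Their siControl pairs were at -0.59, 0.68 and 0.76. Amino acid response genes were at -0.41, -0.20 and 0.32, with the siPSF pair highest in 15 of 15 and the siControl pairs at -0.98, -0.79 and 0.15.

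Beside the siControl pairs, the knockdown response had the same direction and, for most of its genes on average over the sets, a smaller size that varied by set. The same paired test called 734 genes in the control pairs (5.31%), and 300 genes were called in both, 74.4% of the knockdown calls and 40.9% of the control calls. All 403 knockdown calls had the sign of the mean control change, beside 70.8% of all genes tested. The change was smaller in size in knockdown cells for 318 of the 403 genes called there, 270 of the 300 called in both, 24 of 29 androgen-induced genes and 11 of 14 androgen-repressed genes, beside 8551 of 13812 genes tested (61.9%). Over the androgen-induced list the median was 1.76 in knockdown and 2.28 in control pairs. By set it was 1.81 (siCTBP1-AS), 1.84 (siCTBP1-AS #2) and 1.83 (siPSF) in knockdown and 1.80, 2.40 and 2.16 in the siControl pairs. In the siCTBP1-AS set the median was thus not lower in knockdown. Set by set, the knockdown pair had the smaller change in 198 (siCTBP1-AS), 342 (siCTBP1-AS #2) and 257 (siPSF) of the 403, beside 7345, 9611 and 7826 of the 13812 genes tested. For the 29 androgen-induced genes these counts were 22, 27 and 15. The count was thus highest in the siCTBP1-AS #2 set at 1 nM. It was below an even split in the siCTBP1-AS set for the called genes, and near one in the siPSF set for the androgen-induced list.

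The test of the difference itself, knockdown minus control response over the 12 LNCaP arrays, called 0 of 13812 genes with limma (0%). The lowest adjusted p was 0.901, and the unadjusted p was under 0.05 in 566 genes. STEAP4 changed by 4.46, 4.91 and 5.58 in knockdown pairs and by 6.13, 7.46 and 7.06 in control pairs, a difference of -1.90 (SE 0.38, adjusted p = 0.996). IGF1R changed by 1.63, 1.48 and 1.75 against 2.26, 2.91 and 2.60, a difference of -0.97 (SE 0.18), and INSIG1 by 0.83, 0.68 and 0.98 against 1.95, 2.06 and 1.41, a difference of -0.98 (SE 0.19). For these genes every control pair lay above every knockdown pair, but the difference did not pass. They were taken from the genes with the lowest p in this test, a choice that favours such a separation. PKIB, encoding a protein kinase A inhibitor, had the lowest p and changed by -0.39, -0.29 and -0.48 against -1.21, -1.37 and -1.23 (difference 0.88, SE 0.12, adjusted p = 0.901). Its knockdown values were all nearer 0.

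**Figure D5:**
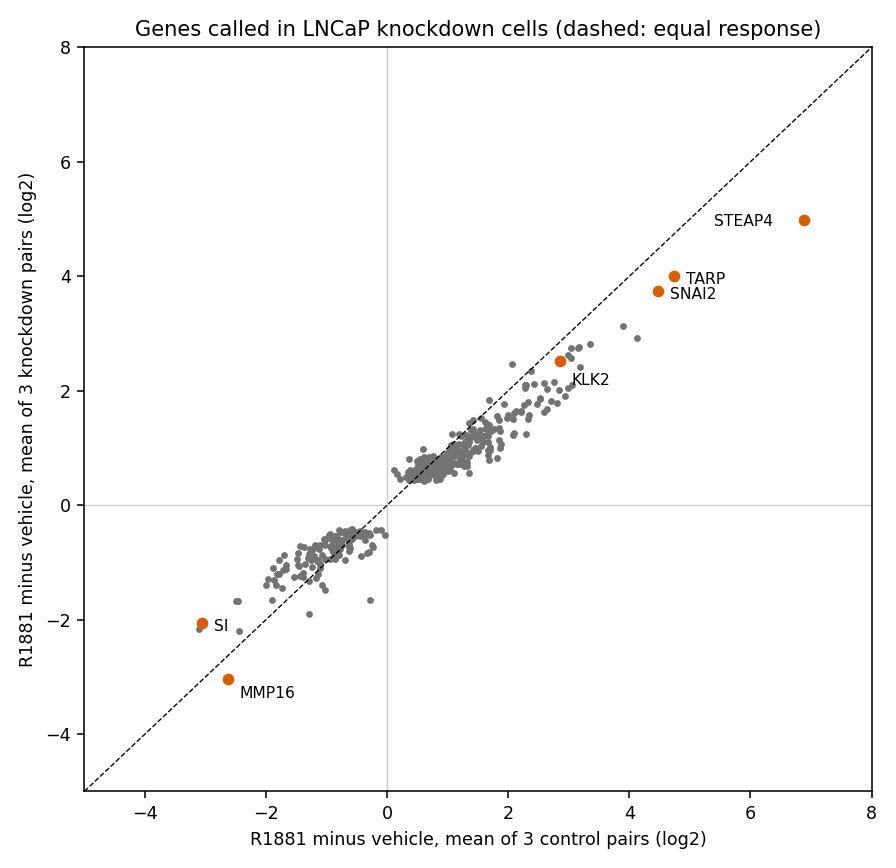
Mean R1881 minus vehicle (log2) in the 3 siControl pairs (x axis) and the 3 knockdown pairs (y axis) for the 403 genes called in knockdown cells, 1 point a gene, with equal responses on the dashed line. No gene lies in a quadrant of opposite signs, and STEAP4 sits below the line at 6.88 and 4.98.

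No interferon response gene was called in the knockdown response, and the list was lowest in the siControl pair beside siCTBP1-AS. The list's median was -0.02, -0.23 and -0.06 in the siCTBP1-AS, siCTBP1-AS #2 and siPSF pairs and -1.30, -0.23 and -0.13 in the siControl pairs of the same sets. IFIT2, which binds viral RNA, had vehicle signals of 12.40, 8.18 and 5.12 in knockdown cells and 8.49, 5.42 and 5.75 in control cells. With R1881 it was at 12.52, 8.62 and 4.93 in knockdown cells and 7.21, 4.49 and 5.00 in control cells, so its change was 0.13, 0.44 and -0.19 against -1.29, -0.93 and -0.75. The difference was 1.11 (SE 0.20, adjusted p = 0.996), and IFIT2 too was taken from the genes with the lowest p in the difference test. Its starting level was higher in both siCTBP1-AS knockdowns than in their controls and lower with siPSF, and the part of the starting level in the change was not tested. In the interferon list 5 of 32 genes had an unadjusted p under 0.05 for the difference, in the hypoxia and glycolysis list 7 of 22, and over all genes 561 of the 13812 tested in the knockdown fit. The hypoxia list had medians of -0.26, -0.0033 and -0.0087 in knockdown pairs and 0.55, 0.22 and 0.10 in control pairs.

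VCaP, a second androgen-responsive prostate cancer line, gave 1 array a group and therefore values without a test. Of the 403 genes, 358 had the same sign in the VCaP siCTBP1-AS #2 pair (88.8%, beside 64.7% of all genes tested) and 367 in the VCaP siPSF pair (91.1%, beside 64.1%). STEAP4 changed by 5.79 and 5.55 there, SLC45A3 by 3.28 and 2.71 and KLK3 by 2.23 and 2.30. SI changed by -2.77 and -1.68 and OPRK1 by -2.58 and -2.19. TARP, at -0.42 and 0.45, and MMP16, at 0.34 and -0.53, did not share the LNCaP direction in both VCaP pairs.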

How the data were processed

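The authors deposited a log2 signal for each transcript cluster of a gene array. Per the submitters' processing notes the tools were RMA and Affymetrix Expression Console 1.1.1, and the sources used here do not say which arrays were normalized together. Of 33297 clusters, 19460 had 1 gene symbol, 1754 several and 12083 were unnamed here; clusters with several symbols were not used, so some known androgen genes were not analysed here. Where a gene had several clusters, the brightest on average stood for it. Of 18417 genes, the faintest 25% over the 6 arrays were dropped, leaving 13812. Arrays of different sets had different medians, so changes were taken within pairs.

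Tests used limma 3.58.1 in R 4.3.3 (lmFit and eBayes, two-sided, Benjamini-Hochberg at 0.05) with the pair as a block, after a test on simulated data. The pairing comes from the siRNA labels. Deviations from the treatment means correlated at r = 0.91, 0.93 and 0.86 within pairs and at -0.68 to -0.18 between other arrays. Subtracting these means itself pushes arrays of different pairs towards negative values, and arrays of a pair share the scale of their set. These values therefore do not test the pairing. Between the last genes inside the threshold, FNBP1L (adjusted p = 0.0499) and IFI27L2 (0.0499), and the first outside, KRCC1 (0.0501) and PEA15 (0.0503), changes were alike in size. Named genes were the 15 largest increases and 15 largest decreases among called genes, a set of target and reference genes, up to 5 called members of each list, and the 5 widest ranges with and without a call; other list members, STK39 and the genes of the difference tests were named after their values were seen. The arrays, members and lists were chosen with earlier results of these data known. Array number and scanner range, not read depth, limit precision. Promoter sequences are from RefSeq.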

Additional observations from a re-analysis of the deposited data

Results flagged for a closer look

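In 216 of 13812 genes (1.56%) all 3 knockdown pairs and all 3 siControl pairs moved in opposite directions with R1881. The 5 largest differences among them, leaving out microRNA and uncharacterised LOC symbols, are given here, and the limma test of the difference passed for none of them (adjusted p = 0.996 for each). P4HA1, a collagen prolyl hydroxylase gene, changed by -0.65, -0.03 and -0.47 in the siCTBP1-AS, siCTBP1-AS #2 and siPSF pairs and by 0.96, 0.50 and 0.33 in the control pairs of those sets, a knockdown minus control difference of -0.98. DDX60L, an interferon-induced helicase gene, changed by 0.17, 0.04 and 0.28 against -1.49, -0.63 and -0.08, a difference of 0.89. PARP9, another interferon-induced gene, changed by 0.05, 0.25 and 0.01 against -1.30, -0.47 and -0.17, a difference of 0.75. SNAI3-AS1 had a difference of -0.77 and GPCPD1, a choline metabolism gene, one of 0.66. In each case at least 1 knockdown pair was within 0.1 of 0.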

How the results depend on the processing

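The count of 403 called genes in the knockdown response ran from 29 to 281 when a pair was left out, lowest without the siPSF pair and 176 without the siCTBP1-AS pair. All 29 calls made without siPSF were among the 403. With no replicate block, that is without the pairing, 0 genes were called by limma (123 at an unadjusted p under 0.05). The count stayed within 1.5 times under 6 other settings: 316 with no filter, 419 with the stricter filter, 431 with centred arrays, 340 after quantile normalization, 538 with trend and robust eBayes and 409 with mean clusters. The count of genes past 1 log2 unit in every pair, 69, ran from 79 to 133 with a pair left out, since fewer pairs had to pass, highest without the siCTBP1-AS #2 pair. Neither difference test called a gene under any setting run, and leaving a pair out of the siPSF difference left no residual degrees of freedom and so no test. No named gene reversed its called direction.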
